A study of Mus musculus with 17 samples.

Results

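The proteasome genes described here are the 49 protein-coding rows of the deposited table whose symbol starts with Psm followed by a family letter from a to g and a number, with the immunoproteasome genes Psmb8, Psmb9 and Psmb10 left out and Nfe2l1 added, out of 55414 rows in all. Transcripts were measured by RNA sequencing in brown adipose tissue, the fat depot that burns lipid to make heat, of C57BL/6J mice. The 4 groups were 5 high-fat diet (HFD) knockout, 5 HFD wild-type, 3 chow knockout and 4 chow wild-type samples, with 1 library each. Knockout mice carried a conditional deletion in brown adipocytes of Acbp, annotated as Dbi, the gene for a protein that carries acyl-CoA esters, and this deletion was the only allele that set the groups apart in the labels. All mice were housed at 22 °C. HFD groups received a diet with 45% of its calories from fat for 12 weeks, and chow groups a standard diet. Neither the driver of the deletion nor the age of the mice is given in the sources used here. Whether samples are separate animals is also not stated, so a p value here reflects the spread among samples, which may be technical.

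The proteasome is the protease that degrades ubiquitin-tagged proteins in the cytosol and nucleus. Its 20S core is a barrel whose outer rings of alpha subunits (Psma genes) gate the entry and whose inner rings of beta subunits (Psmb genes) hold the active sites. The 19S regulatory particle caps the barrel, with a ring of ATPases (Psmc genes) that unfolds the substrate and non-ATPase subunits (Psmd genes) that bind and trim ubiquitin. NFE2L1, also called NRF1, is a transcription factor anchored in the endoplasmic reticulum that raises transcription of subunit genes through antioxidant response elements when proteasome activity is short. In brown fat it is known for adjusting proteasome capacity to thermogenic demand.

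Of the 49 genes, 33 encode structural subunits of the 20S core and the 19S particle: 8 alpha, 8 beta, 6 ATPase and 11 non-ATPase subunits. The others are 5 activators (Psme1, Psme2, Psme2b, Psme3 and Psme4), the inhibitor Psmf1, 7 assembly chaperones (Psmg1 to Psmg4, Psmd5, Psmd9 and Psmd10), Nfe2l1, and 2 genes that match by name only. These 2 are Psmc3ip, a meiotic recombination factor, and Psme3ip1, which encodes a partner of the nuclear activator. A filter on low counts kept 47 of the 49 genes, and 31 of the 33 structural subunits. The genes below it were Psma8, the testis form of an alpha subunit, with at most 10 counts in any library, and Psmb11, the beta subunit of the thymus proteasome, with at most 2 counts. Psme2b is a near-copy of Psme2 and had 9 to 97 counts, so its value is uncertain.

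Promoter windows from 250 bases before to 50 bases after an annotated start were available from RefSeq (build GRCm38.p6) for 41 of the 49 genes, in 49 windows because some genes have several starts. The windows were searched on both strands for the antioxidant response element core TGACNNNGC, in which N is any base, since this is the element NFE2L1 is known to bind. It was found in 6 of the 49 windows, 12.2%, against 12.4% of all 32851 windows of the same length. The genes with a match were Psmb5, Psmb6, Psmc6, Psmd12, Psmd9 and Psme4. The NF-Y box CCAAT, a common promoter element, was found in 38.8% of the 49 windows and in 37.4% of all windows. Both shares lay close to those of promoters at large. Below are 3 of the windows with an antioxidant response element core, for 2 catalytic subunits and for the ATPase gene Psmc6, with the match in capitals.
Psmb5: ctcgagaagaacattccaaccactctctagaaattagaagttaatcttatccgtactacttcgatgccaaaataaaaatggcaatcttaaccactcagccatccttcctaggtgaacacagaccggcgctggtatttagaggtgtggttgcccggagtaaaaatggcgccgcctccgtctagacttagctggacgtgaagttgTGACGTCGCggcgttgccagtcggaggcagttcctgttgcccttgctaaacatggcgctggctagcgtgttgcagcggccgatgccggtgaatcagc
Psmb6: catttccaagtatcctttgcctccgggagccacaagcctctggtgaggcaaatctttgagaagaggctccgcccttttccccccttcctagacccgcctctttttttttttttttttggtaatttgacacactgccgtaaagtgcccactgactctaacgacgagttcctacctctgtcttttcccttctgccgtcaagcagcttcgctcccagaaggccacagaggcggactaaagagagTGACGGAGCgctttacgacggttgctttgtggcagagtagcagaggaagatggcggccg
Psmc6: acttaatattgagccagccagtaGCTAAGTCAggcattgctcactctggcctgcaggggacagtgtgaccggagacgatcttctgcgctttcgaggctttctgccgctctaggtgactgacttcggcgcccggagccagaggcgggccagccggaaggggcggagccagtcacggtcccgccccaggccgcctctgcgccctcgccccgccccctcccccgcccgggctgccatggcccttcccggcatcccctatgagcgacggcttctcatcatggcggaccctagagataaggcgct
The Psmb5 window lies at chr14:54617946-54618245 on the minus strand, and its match starts 47 bases before the annotated start. The Psmb6 window lies at chr11:70525107-70525406 on the plus strand, with the match 9 bases before the start. In Psmc6, at chr14:45329574-45329873 on the plus strand, the match lies farther out, 227 bases before the start, on the opposite strand.

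Library totals were 39585167 to 104874625 counts, and the deleted gene Dbi was at 111 to 165 CPM (the counts-per-million scale) in HFD knockout, 658 to 795 in HFD wild-type, 88.3 to 103 in chow knockout and 949 to 1104 in chow wild-type libraries. CPM values here carry edgeR's TMM (trimmed mean of M-values) factors, which set library sizes so that most genes do not change. The 10 brown adipocyte markers, such as Ucp1 and Cidea, were above 0 in all 17 libraries. Skeletal muscle and hepatocyte transcripts varied between libraries: the summed muscle markers lay at 67.03 to 13580 CPM in HFD knockout, 62 to 7950 in HFD wild-type, 64.1 to 1854 in chow knockout and 552 to 3179 in chow wild-type libraries. The summed hepatocyte markers lay at 5.95 to 292 CPM in HFD knockout, 2.78 to 228 in HFD wild-type, 10.98 to 77.2 in chow knockout and 0.835 to 2.12 in chow wild-type libraries, so chow wild-type was below every other library. All 15 hepatocyte markers were higher in the knockout on chow, with 1 that rose, beside 0.519% of all genes. On HFD against chow, 14 of the 15 rose in wild-type and 0 in the knockout, beside 16.9% and 12.8% of all genes. In the library with most of them at 0, 10 of the 15 had no counts, Alb among those at 0 in 1 or more libraries. Library numbers in the labels, which are not stated to be batches, separated HFD knockout 2 to 5 from the other HFD libraries, the diets from each other, and chow wild-type 1 and 2 from the other chow libraries. Differences by diet and by any factor that follows these numbers cannot be told apart.

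As a set, the structural subunits were higher in knockout than in wild-type libraries of the same diet, and lower on HFD than on chow relative to the typical gene. The summed level of the 31 structural subunits tested was 1529, 1697, 1596, 1678 and 1700 CPM in HFD knockout libraries 1 to 5, and 1425, 1417, 1317, 1518 and 1408 in HFD wild-type libraries 1 to 5. It was 1893, 1985 and 1933 CPM in chow knockout libraries 2 to 4, and 1690, 1816, 1884 and 1763 in chow wild-type libraries 1 to 4. With TMM, all 5 HFD knockout libraries lay above all 5 HFD wild-type libraries, with HFD knockout 1 the closest to the wild-type libraries. The same held on chow for all 3 knockout libraries against 4 wild-type libraries, and every chow library lay above every HFD wild-type library. On library totals without TMM factors the genotypes overlapped on both diets. HFD knockout 1 (1684 CPM) then lay below HFD wild-type 3 (1753 CPM), and chow knockout 2 (1550 CPM) below chow wild-type 3 (1596 CPM). In bulk tissue, fewer cells that express a gene and less RNA of it per cell cannot be told apart.

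**Figure D1:**
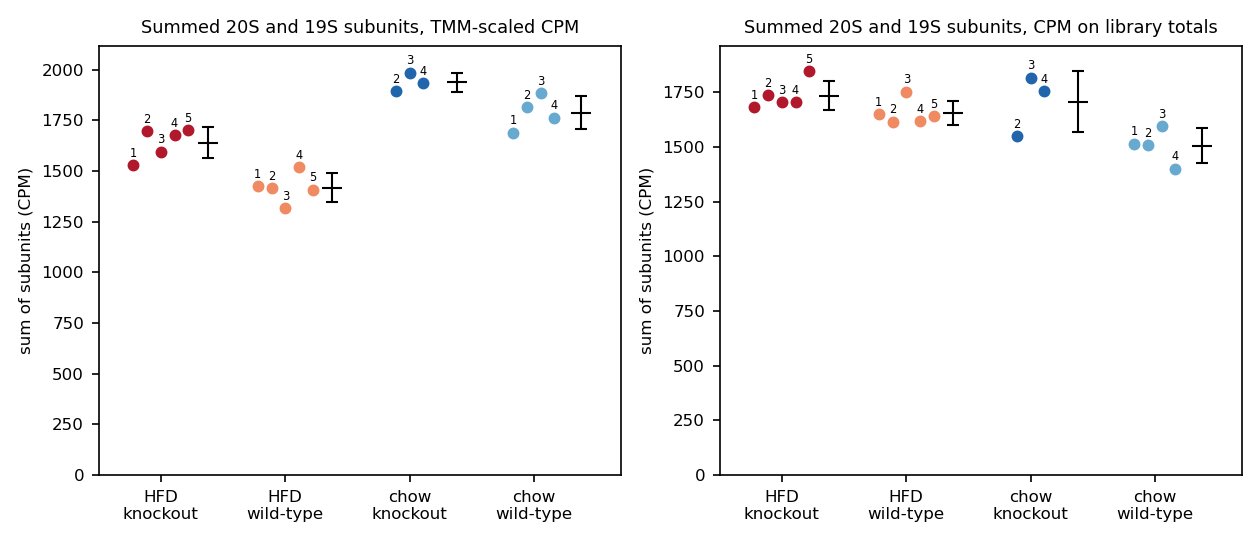
Summed level of the structural 20S and 19S subunits in each of 17 libraries (CPM), scaled by TMM on the left and by library totals alone on the right; points are libraries with their replicate number, and bars are the mean ± SD of each group. With TMM the chow groups are highest (1690 to 1985 CPM) and HFD wild-type is lowest (1317 to 1518 CPM); on library totals chow wild-type is lowest (1402 to 1596 CPM).

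The place of the HFD groups and the separation of the genotypes in the summed level depended on how libraries were scaled. TMM factors were 1.017 to 1.331 in HFD libraries and 0.795 to 0.916 in chow libraries. On library totals without these factors, the median over all 17717 genes tested shifted to 0.30 for HFD against chow in the knockout, to 0.49 in wild-type, to -0.15 for genotype on HFD and to 0.053 for genotype on chow (log2 fold change). The gap between the median of the 47 genes and the median of all genes hardly moved: it was 0.185 with TMM and 0.189 on library totals for genotype on HFD, 0.121 and 0.126 for genotype on chow, -0.246 and -0.249 for diet in the knockout, and -0.259 and -0.257 for diet in wild-type. Changes are therefore given relative to the typical gene, and for genes described by diet the sign on library totals is stated where it differs.

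**Figure D2:**
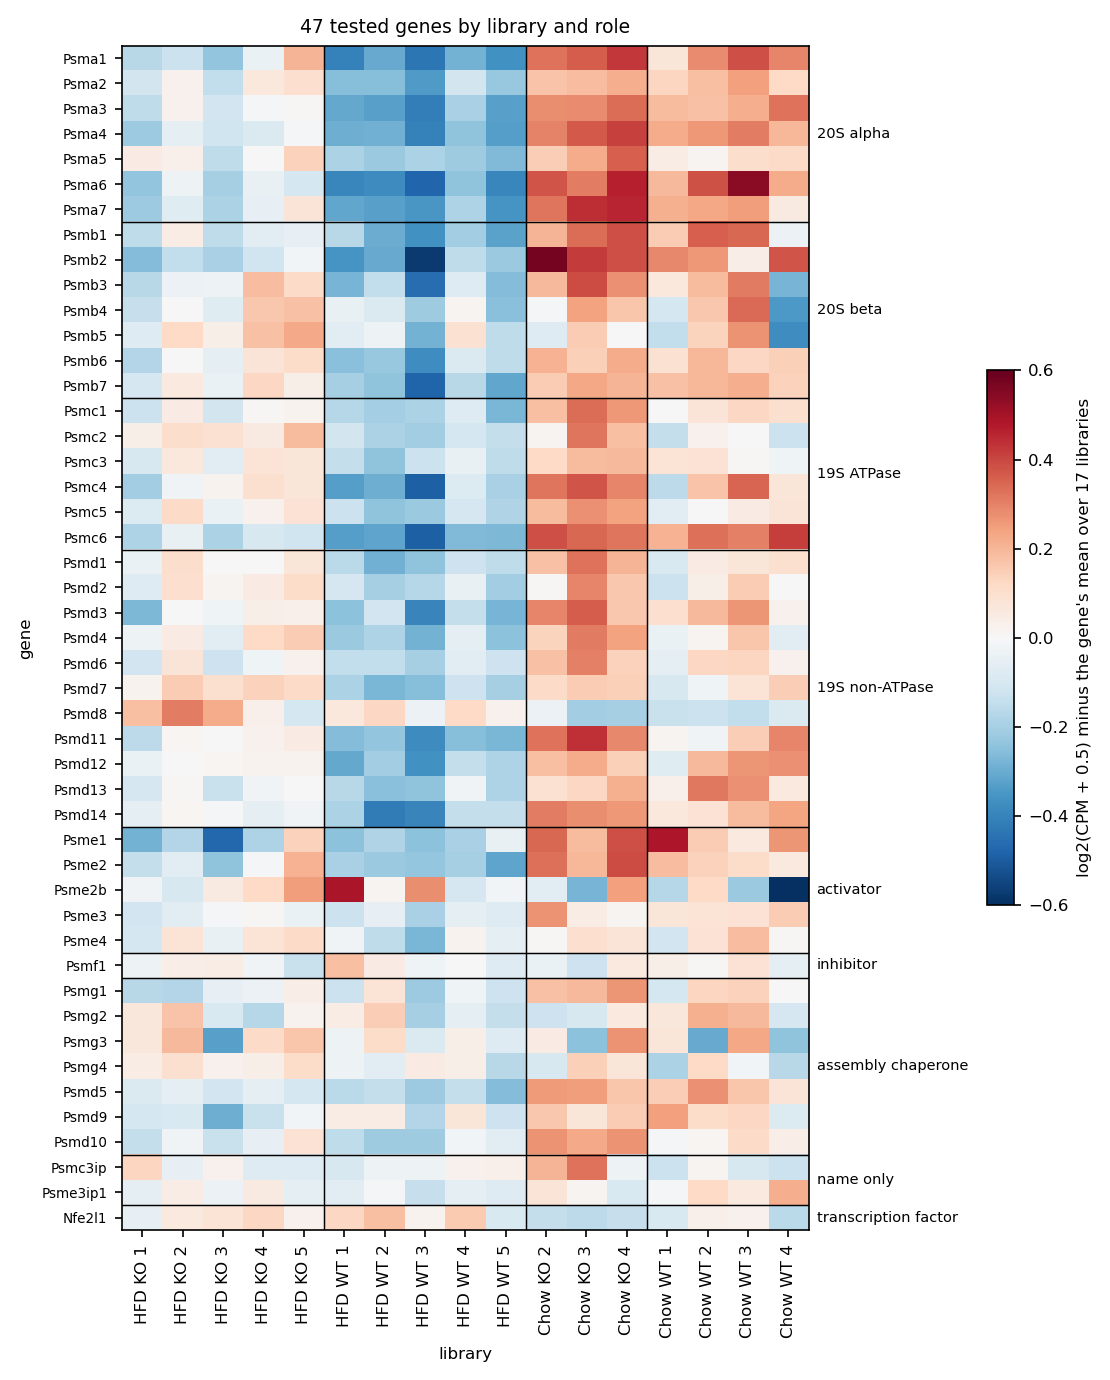
Level of the 47 tested genes in each library, as log2(CPM + 0.5) minus the mean of the gene over the 17 libraries (red above, blue below), with rows grouped by role and columns by group. The alpha subunits are the most uniform block, below their mean in all 5 HFD wild-type libraries and above it in all 7 chow libraries; Psmd8 and Nfe2l1 run the other way.

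Loss of Acbp on HFD was the first genotype comparison, which asks what the deletion does under a lipid load. All 31 structural subunits tested had a higher level in HFD knockout than in HFD wild-type libraries, with a median log2 fold change of 0.22, and 3 passed the test: Psmd7, Psma3 and Psmb7 rose. Over all 47 genes, 42 were higher and 5 lower, with a median of 0.19 beside 0.00097 over all genes, and 3 rose and 0 fell at an adjusted p of 0.05 or less. In the whole table, 0.31% of genes rose and 0.226% fell in this comparison. On library totals, 28 of the 31 subunits were still higher, with a median of 0.076, and none of the 47 passed. DESeq2 called 18 of the 47 genes as higher in this comparison, beside 1.47% of all genes that rose and 1.81% that fell by that tool. The count was 6 with limma-voom, beside 0.514% and 0.57%, and 1 with edgeR without the low-count filter.

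Psmd7 encodes a non-ATPase subunit of the 19S lid that pairs with the deubiquitinase Psmd14. It had 35.3, 38.7, 37.2, 38.3 and 37.7 CPM in HFD knockout libraries and 30.45, 28.7, 29.03, 31.9 and 30.2 CPM in HFD wild-type libraries. The groups did not overlap, and the log2 fold change was 0.32 ± 0.050 (SE; edgeR adjusted p = 0.0095), a 1.25-fold level. Psma3, an alpha subunit of the core, had 69.9, 79.05, 71.8, 77.4 and 78.1 CPM in HFD knockout libraries against 62.8, 61.8, 58.2, 67.85 and 61.97 CPM in HFD wild-type libraries, again without overlap. Its log2 fold change was 0.27 ± 0.052 (SE; edgeR adjusted p = 0.0352).

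The 3 catalytic beta subunits of the constitutive core are Psmb5 (chymotrypsin-like), Psmb6 (caspase-like) and Psmb7 (trypsin-like). Psmb7 had 73.75, 82.5, 76.97, 86.4 and 81.04 CPM in HFD knockout libraries and 68.8, 66.9, 56.6, 70.5 and 63.8 CPM in HFD wild-type libraries, with no overlap and a log2 fold change of 0.29 ± 0.059 (SE; edgeR adjusted p = 0.0426). Psmb6 had 47, 53.3, 51.04, 55.96 and 57.35 CPM in HFD knockout libraries and 44.6, 45.25, 40.9, 49.98 and 47.8 CPM in HFD wild-type libraries. These ranges overlapped, and the log2 fold change of Psmb6 was 0.21 ± 0.061 (SE; edgeR adjusted p = 0.131). Psmb5 had 47.6, 54.7, 51.5, 56.8 and 58.97 CPM in HFD knockout libraries and 48.1, 49.3, 41.25, 53.6 and 45.3 CPM in HFD wild-type libraries, with overlap and a log2 fold change of 0.18 ± 0.11 (SE; edgeR adjusted p = 0.508).

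**Figure D3:**
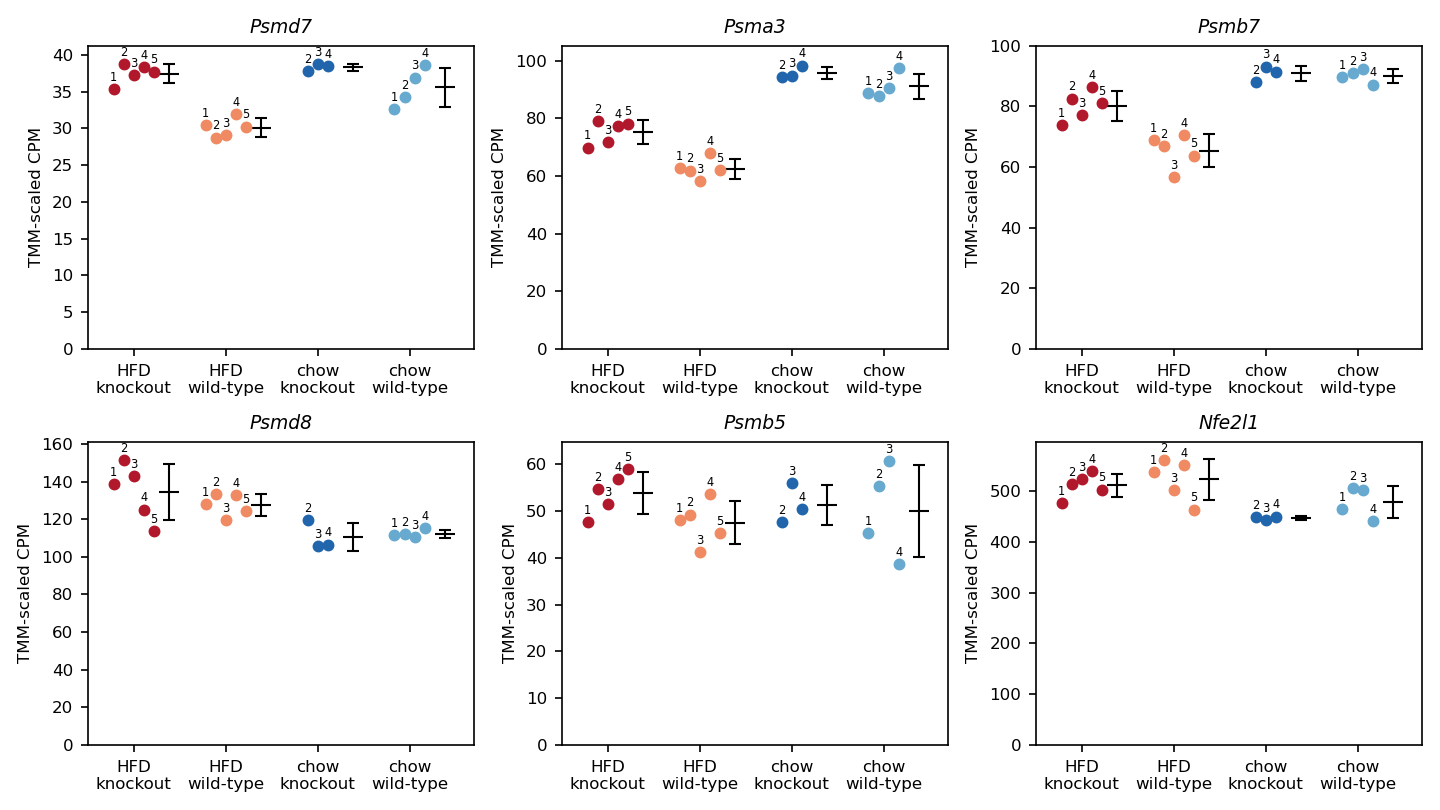
TMM-scaled CPM of 6 genes in each of the 17 libraries, with replicate numbers beside the points and the mean ± SD of each group as bars. Psmd7, Psma3 and Psmb7 are higher in all 5 HFD knockout than in all 5 HFD wild-type libraries; Psmb5 overlaps between all groups, and Psmd8 and Nfe2l1 have their lowest group means on chow.

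By role, the alpha subunits were the most even on HFD: all 7 tested were higher in the knockout, with log2 fold changes of 0.22 to 0.29. The 7 beta subunits lay between 0.15 and 0.29, the 6 ATPases between 0.15 and 0.27, and the 11 non-ATPase subunits between 0.073 (Psmd8) and 0.32 (Psmd7). Genes outside the 26S particle were less shifted. The activators had a median of 0.057, with Psme2 at 0.20 and Psme2b lowest at -0.13, and the assembly chaperones a median of 0.075, with Psmd9 at -0.11. The inhibitor Psmf1 stood at -0.049 and Nfe2l1 itself at -0.033 ± 0.063 (SE; edgeR adjusted p = 0.878). On library totals Psmd8 turned to -0.071, and 1 of the 16 genes outside the particle was higher in the knockout, against 11 with TMM. None of these 16 genes passed the test, and no test of a difference between roles was made.

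The HFD knockout libraries also differed in library number and in other transcripts. HFD knockout 1, the one knockout library numbered beside the wild-type libraries, had a median difference of 0.119 (log2) from the HFD wild-type mean over the 31 subunits, with 29 of 31 higher. The other HFD knockout libraries had 0.245, 0.161, 0.255 and 0.301. With the run of library numbers as a covariate, 0 of the 47 genes passed and their median was 0.089, but HFD knockout 1 is then the only library that carries the HFD genotype difference, so few calls could be made. The summed muscle markers were highest in HFD knockout 2 (13580 CPM) and HFD wild-type 1 (7950 CPM). Without the 4 HFD libraries richest in muscle transcripts, without the 3 richest in hepatocyte transcripts, or with both marker sums as covariates, 0 genes passed. The first step leaves HFD knockout 1 and 3 alone in their group, and the second takes out HFD knockout 4 and 5. Fewer libraries then carry the difference, so fewer calls could be made. What part these transcripts have in the difference was not tested further. All 5 endothelial markers were lower in HFD knockout libraries, with a median of -0.30. With TMM 1 (Emcn) fell, beside 0.226% of all genes. On library totals 3 fell, but that scaling shifted the median of all genes to -0.15. The share of all genes that fell under it is not given here, so this count cannot be set against the background. The sum of the 5 markers was 370.1 to 455 CPM in HFD knockout and 462.5 to 525 in HFD wild-type libraries, without overlap. The part of endothelial transcripts in the subunit values was not tested. Among libraries left out singly, 0 genes passed without HFD knockout 4 and 5 without HFD knockout 1. The count was 1 without chow knockout 2, 3 or 4, without HFD wild-type 1, 2 or 3, and without HFD knockout 2 or 5, and that 1 gene was Psmd7 each time.

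**Figure D4:**
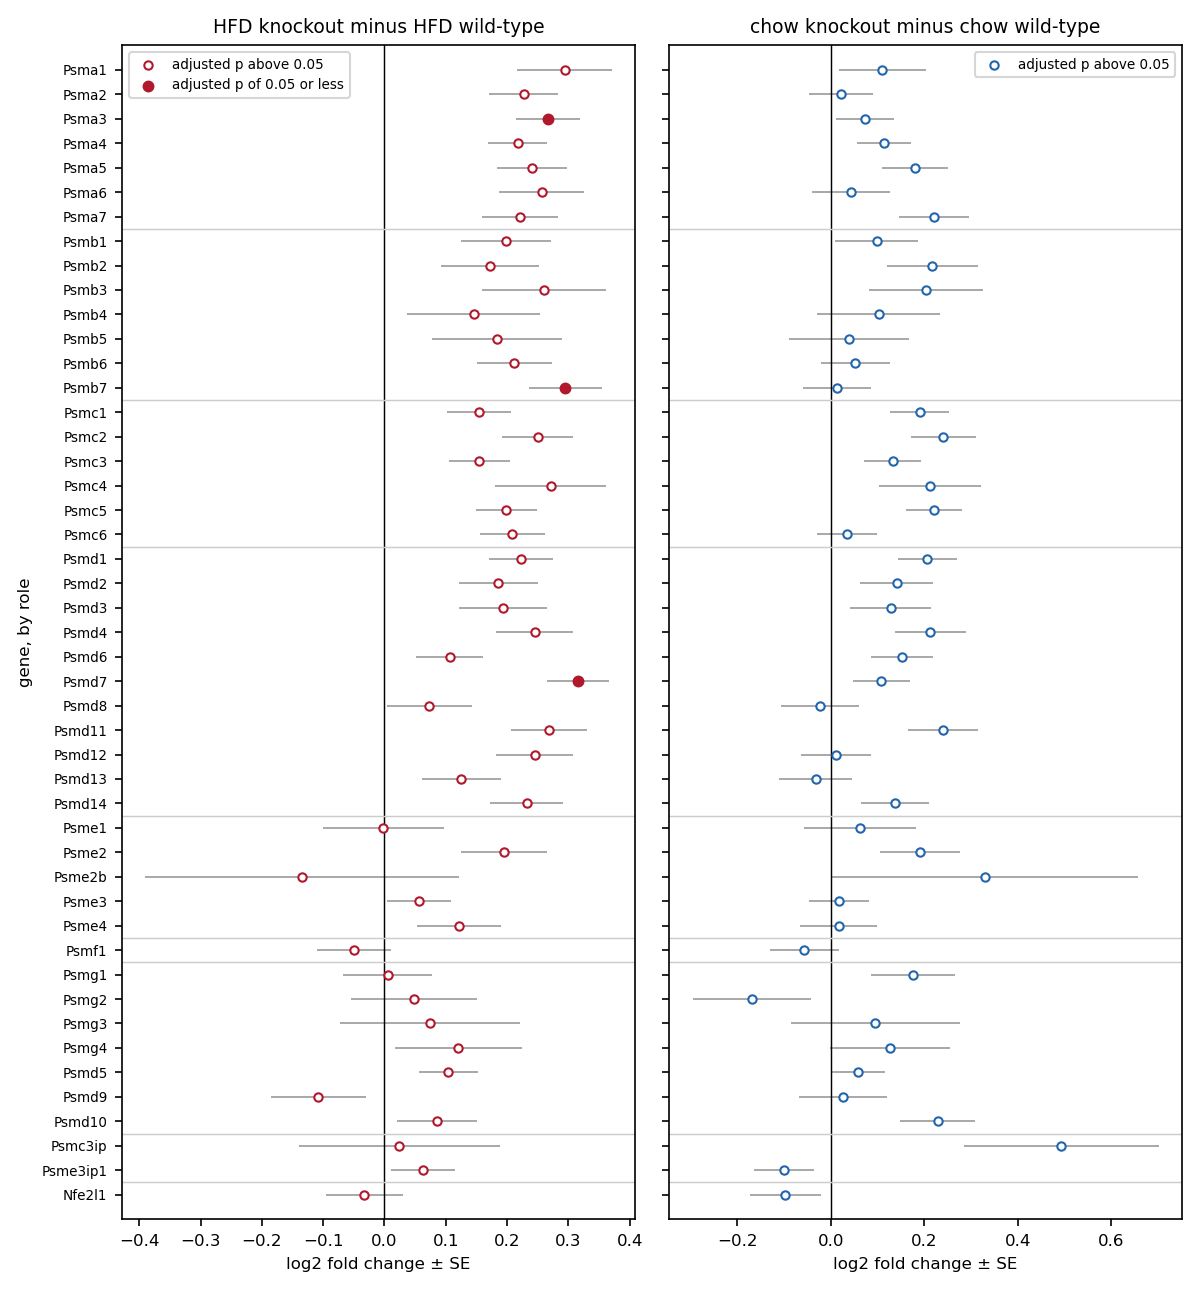
Log2 fold change ± SE of the 47 tested genes, by role, for HFD knockout minus HFD wild-type on the left and chow knockout minus chow wild-type on the right; filled points have an adjusted p of 0.05 or less. All 31 structural subunits lie right of 0 on HFD and 29 of them on chow, and the filled points are Psma3, Psmb7 and Psmd7 on HFD.

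On chow, most subunits also stood higher in the knockout, and none passed the test. Of the 31 structural subunits, 29 were higher in the knockout with a median log2 fold change of 0.13, and of all 47 genes 41 were higher and 6 lower with a median of 0.11, beside -0.011 over all genes. On library totals all 31 subunits were higher on chow with a median of 0.19, a larger value than the 0.076 on HFD under that scaling. With edgeR 0 of the 47 genes were called, where 0.519% of all genes rose and 0.536% fell. At an unadjusted p under 0.05 there were 14 of 47, beside 15.2% of all genes tested, and this count was 8 without chow knockout 3, 23 on library totals, 9 with the replicate block, 5 with muscle and hepatocyte sums as covariates and 6 without chow wild-type 1 and 2. DESeq2 called 3 (Psmc2, Psmc5 and Psmd1), beside 1.81% of all genes that rose and 1.59% that fell by that tool, limma-voom called 0, beside 0.299% and 0.158%, and edgeR called 1, Psmd11, without chow wild-type 4.

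The 3 genes with the smallest p on chow belong to the 19S base. Psmc5, an ATPase, had 42.15, 44.8 and 43.7 CPM in chow knockout libraries and 35.3, 36.9, 38.3 and 39.05 CPM in chow wild-type libraries, without overlap, with a log2 fold change of 0.22 ± 0.060 (SE; edgeR adjusted p = 0.0867). Psmc2, another ATPase, had 37.1, 45.9 and 41.6 CPM in chow knockout libraries and 33.1, 37.3, 36.65 and 33.4 CPM in chow wild-type libraries. These overlapped, since chow knockout 2 lay below chow wild-type 2, and the log2 fold change was 0.24 ± 0.070 (SE; edgeR adjusted p = 0.106). Psmd1, the large scaffold subunit of the base, had 90.2, 100.1 and 92 CPM in chow knockout libraries and 74.8, 82.5, 83.8 and 85.2 CPM in chow wild-type libraries, with a log2 fold change of 0.21 ± 0.063 (SE; edgeR adjusted p = 0.123). The ATPases as a role had the highest median on chow, 0.20. The lowest and highest single values were Psmg2, a core assembly chaperone, at -0.17 ± 0.13 (SE; edgeR adjusted p = 0.578) and the name-only gene Psmc3ip at 0.49 ± 0.21 (SE; edgeR adjusted p = 0.304), the last at 0.423 to 0.764 CPM. Of the catalytic subunits, Psmb5 stood at 0.038, Psmb6 at 0.052 and Psmb7 at 0.013.

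Averaged over both diets, 12 of the 47 genes rose in the knockout and 0 fell, beside 1.32% of all genes that rose and 1.54% that fell. All 12 were structural subunits: the ATPases Psmc1, Psmc2 and Psmc5, the non-ATPase subunits Psmd1, Psmd4, Psmd7, Psmd11 and Psmd14, and the alpha subunits Psma3, Psma4, Psma5 and Psma7. Their log2 fold changes were 0.17 to 0.25, that is 1.12- to 1.19-fold. The largest was that of Psmd11, a lid subunit known to limit assembly of the 26S particle, at 0.25 ± 0.049 (SE; edgeR adjusted p = 0.0144). Psmd11 had 75.4, 84.75, 83.9, 85.6 and 86.9 CPM in HFD knockout libraries against 70.25, 71.3, 64.7, 70.3 and 69.4 CPM in HFD wild-type libraries. It had 105.5, 114 and 103 CPM in chow knockout libraries against 85.1, 82.8, 93.3 and 103 CPM in chow wild-type libraries. The HFD groups were apart and the chow groups overlapped through chow wild-type 4. Psmc2 stood at 0.25 ± 0.045 (SE; edgeR adjusted p = 0.0127), Psmc5 at 0.21 ± 0.039 (SE; edgeR adjusted p = 0.0127) and Psmd4, a ubiquitin receptor, at 0.23 ± 0.049 (SE; edgeR adjusted p = 0.0226). None of the 7 beta subunits and none of the genes outside the particle passed.

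This count rested on the scaling and on few libraries. On library totals 1 gene passed, Psmd11, without the low-count filter 6 and without the liver-rich HFD libraries 3, and with the run of HFD library numbers as a covariate (which leaves HFD knockout 1 to carry the HFD difference), without the muscle-rich HFD libraries or with muscle and hepatocyte sums as covariates 0 passed. Leaving out 1 library gave 3 genes without chow knockout 3, 5 without chow knockout 4 and 7 without HFD knockout 4, and leaving out chow wild-type 1 and 2 together gave 1, Psmc2.

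The genotype effect was not shown to differ between the diets. For the interaction, 0 of the 47 genes passed with edgeR, DESeq2 or limma-voom, where 0.0452% of all genes were higher and 0.0452% lower by edgeR. At an unadjusted p under 0.05 there were 5 of 47, Psmb7, Psmd7, Psmd12, Psma3 and Psma2, beside 10.4% of all genes. This count was 3 without chow wild-type 3, chow knockout 2 or 3, HFD wild-type 1 or 3 or HFD knockout 2, each left out alone, and 8 without chow wild-type 1 or HFD knockout 1. It was 9 on library totals, 3 without the low-count filter, 1 without the liver-rich HFD libraries, and 0 without the muscle-rich ones, with the run of library numbers or with the marker sums as covariates. The 3 smallest p values were those of Psmb7, with a difference of the log2 fold changes of 0.28 ± 0.093 (SE; edgeR adjusted p = 0.297), of Psmd7 at 0.21 ± 0.079 (SE; edgeR adjusted p = 0.364) and of Psmd12, a lid subunit, at 0.23 ± 0.098 (SE; edgeR adjusted p = 0.42).

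The diet comparisons ask how the 12 weeks on HFD changed the tissue in each genotype, and here the subunits stood lower than the typical gene. In knockout libraries, 25 of the 47 genes fell on HFD and 1 rose with TMM scaling, beside 13.1% of all genes that fell and 12.8% that rose. The fallen genes were 19 of 31 structural subunits, 2 of 5 activators and 4 of 7 assembly chaperones, and the gene that rose was Psmd8. In wild-type libraries, 31 of the 47 fell and 0 rose, beside 15.2% of all genes that fell and 16.9% that rose. They were 26 of 31 structural subunits, 3 activators, 1 assembly chaperone (Psmd5) and Psme3ip1. The median log2 fold change over the 47 genes was -0.21 in the knockout and -0.24 in wild-type, beside 0.032 and 0.018 over all genes. The count of calls was 17 in the knockout without chow knockout 3 and 15 with the run of library numbers as a covariate, and 19 in wild-type with the muscle and hepatocyte sums as covariates. The knockout and wild-type comparisons have no library in common, and their difference is the interaction given above.

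On library totals the direction turned: in the knockout 6 of the 47 genes rose and 4 fell, beside 30% of all genes that rose and 3.12% that fell, and in wild-type 25 rose and 2 fell, beside 59.2% and 2.4%. The median of the 47 genes was then 0.048 in the knockout and 0.24 in wild-type, beside 0.30 and 0.49 over all genes, and 42 and 41 of the 47 genes still lay below the all-gene median, the same counts as with TMM. The 4 that fell under both scalings in the knockout were Psma4, Psma6, Psmb2 and Psmc6, and the 2 in wild-type were Psma6 and Psmc6. Without the factors Psmb6 stood at 0.067 in the knockout and 0.11 in wild-type, and Psmb7 at 0.081 in the knockout and 0.0064 in wild-type, none of which passed.

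**Figure D5:**
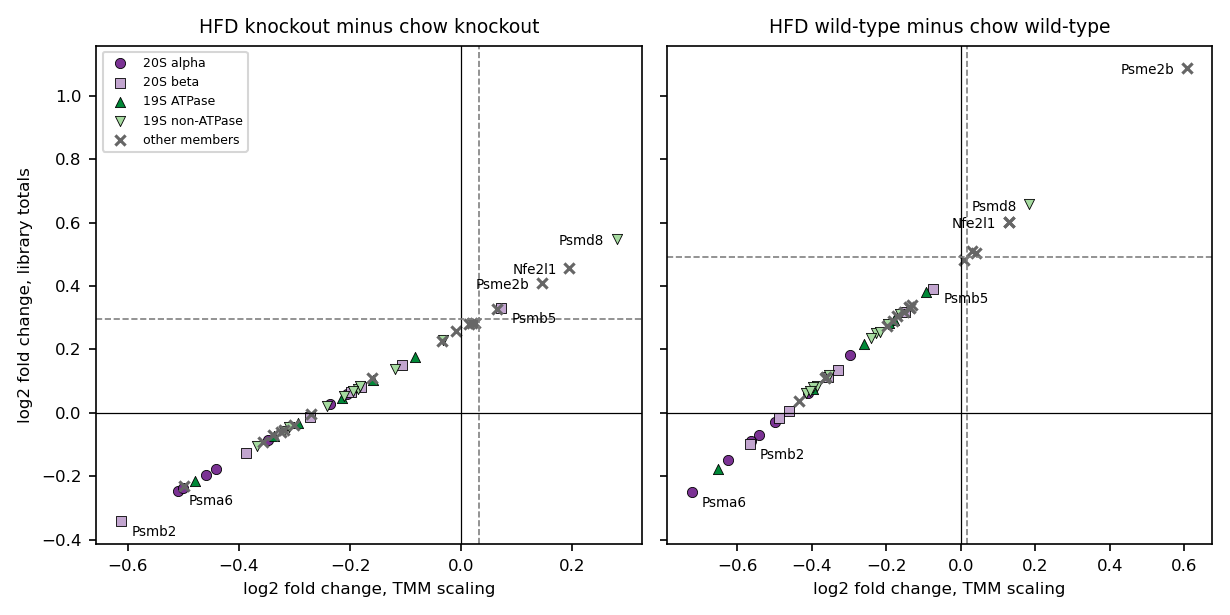
Log2 fold change of the 47 tested genes for HFD against chow, with TMM scaling on the horizontal axis and library totals on the vertical axis, in the knockout on the left and wild-type on the right; symbols are roles, and dashed lines are the medians of all 17717 genes (0.032 and 0.297 in the knockout, 0.018 and 0.493 in wild-type). Most genes lie below and left of the dashed lines under both scalings, with Psmb2 farthest in the knockout and Psma6 in wild-type, and Psmd8 and Nfe2l1 lie above and right of them.

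The alpha subunits were the lowest role on HFD. All 7 tested fell in both genotypes with TMM scaling, with a median log2 fold change of -0.44 in the knockout and -0.54 in wild-type. On library totals Psma2 turned to 0.059 in the knockout and 0.061 in wild-type, and Psma5 to 0.027 and 0.18, none passing. The other alpha subunits stayed lower under that scaling, but only Psma4 and Psma6 passed in the knockout and only Psma6 in wild-type. Psma6 had 52.65, 60.7, 54.04, 60.1 and 57.6 CPM in HFD knockout libraries against 80.8, 76.8 and 85.9 CPM in chow knockout libraries, and a log2 fold change of -0.51 ± 0.079 (SE; edgeR adjusted p = 0.000299). In wild-type it had 47.2, 47.6, 44.5, 52.3 and 47.2 CPM on HFD against 71.1, 81.1, 90.5 and 72.55 CPM on chow, with -0.72 ± 0.073 (SE; edgeR adjusted p = 5.18e-06), the largest drop among the 47 genes there. Neither pair of groups overlapped, and on library totals the values were -0.25 in the knockout and -0.25 in wild-type, both passing. Psma4 stood at -0.46 ± 0.055 (SE; edgeR adjusted p = 3.34e-05) in the knockout and at -0.56 ± 0.051 (SE; edgeR adjusted p = 1.99e-06) in wild-type, and at -0.20 and -0.090 on library totals.

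Among the ATPases, Psmc6 fell most. It had 52.8, 58.2, 52.6, 56.2 and 55.2 CPM in HFD knockout libraries against 78.5, 76.4 and 75.1 CPM in chow knockout libraries, and 47.65, 48.1, 42.6, 49.8 and 49.8 CPM in HFD wild-type libraries against 69.45, 75.7, 74.1 and 80.1 CPM in chow wild-type libraries. All HFD libraries of a genotype lay below all its chow libraries, with a log2 fold change of -0.48 ± 0.061 (SE; edgeR adjusted p = 5.54e-05) in the knockout and -0.65 ± 0.056 (SE; edgeR adjusted p = 1.25e-06) in wild-type, and of -0.21 and -0.18 on library totals. Psmc2 stood at -0.084 in the knockout and -0.093 in wild-type with TMM and did not pass in either genotype. On library totals Psmc2 turned, to 0.18 in the knockout, which did not pass, and to 0.38 in wild-type, where it rose (edgeR adjusted p = 0.00114). Psmc6 carries one of the antioxidant response element cores printed above.

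The beta subunits were uneven. Psmb2, a non-catalytic subunit of the inner ring, had 37.7, 40.9, 39.6, 41.7 and 44.9 CPM in HFD knockout libraries against 67.75, 60.7 and 59.3 CPM in chow knockout libraries, with -0.61 ± 0.092 (SE; edgeR adjusted p = 0.000232), the largest drop among the 47 genes in the knockout, and -0.34 on library totals. Psmb7 fell in wild-type, where it had 68.8, 66.9, 56.6, 70.5 and 63.8 CPM on HFD against 89.6, 90.96, 92.3 and 87.1 CPM on chow and a log2 fold change of -0.46 ± 0.063 (SE; edgeR adjusted p = 6.3e-05). In the knockout Psmb7 stood at -0.18 ± 0.068 (SE; edgeR adjusted p = 0.0624), which did not pass, with 87.9, 93.1 and 91.4 CPM in chow knockout libraries. Psmb6 fell in both, at -0.20 ± 0.070 (SE; edgeR adjusted p = 0.0476) in the knockout and -0.36 ± 0.064 (SE; edgeR adjusted p = 0.000643) in wild-type. Its chow levels were 61.4, 58.7 and 62.03 CPM in knockout and 56.6, 61.02, 57.9 and 58.7 CPM in wild-type libraries.

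Psmb5, the chymotrypsin-like subunit, passed in no comparison with TMM scaling. On chow it had 47.6, 55.9 and 50.5 CPM in knockout and 45.3, 55.3, 60.7 and 38.7 CPM in wild-type libraries, a spread within wild-type from 38.7 in replicate 4 to 60.7 in replicate 3 that covered every chow knockout library. HFD against chow gave 0.071 ± 0.12 (SE; edgeR adjusted p = 0.704) in the knockout and -0.074 ± 0.11 (SE; edgeR adjusted p = 0.657) in wild-type, and on library totals the wild-type value was 0.39 with an edgeR adjusted p of 0.00772. Because counts of genes in the same library share its scaling, their ratio does not depend on it. As a share of the CPM of the 3 catalytic subunits, Psmb5 made up 28.8 ± 0.617% (SD, n = 5) in HFD knockout, 29.9 ± 0.760% (SD, n = 5) in HFD wild-type, 25.3 ± 1.44% (SD, n = 3) in chow knockout and 25.02 ± 3.43% (SD, n = 4) in chow wild-type libraries. The HFD shares of 28.3 to 30.8% overlapped the chow shares of 21.0 to 28.8%.

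The make-up of the particle, counted the same way, differed with diet more than with genotype. Alpha subunits held 20.2 ± 0.604% (SD, n = 5) of the CPM of the structural subunits tested in HFD knockout, 19.7 ± 0.188% (SD, n = 5) in HFD wild-type, 22.6 ± 0.839% (SD, n = 3) in chow knockout and 22.96 ± 0.190% (SD, n = 4) in chow wild-type libraries. The HFD libraries (19.4 to 21.1%) lay below all chow libraries (21.8 to 23.5%). Non-ATPase subunits held 42.6 ± 1.16% (SD, n = 5) in HFD knockout, 43.3 ± 0.387% (SD, n = 5) in HFD wild-type, 39.8 ± 0.816% (SD, n = 3) in chow knockout and 39.6 ± 0.942% (SD, n = 4) in chow wild-type libraries. Part of that is Psmd8, a lid subunit, which alone held 8.21 ± 1.08% (SD, n = 5) in HFD knockout, 9.01 ± 0.256% (SD, n = 5) in HFD wild-type, 5.715 ± 0.520% (SD, n = 3) in chow knockout and 6.29 ± 0.347% (SD, n = 4) in chow wild-type libraries. The lowest HFD share of Psmd8, 6.68%, was above the highest chow share, 6.60%, by little. Beta subunits (21.1 to 21.6% on average in each group) and ATPases (15.9 to 16.3%) kept nearly the same share, and no test was made on shares, which are not protein amounts.

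Psmd8 was the one subunit that rose on HFD with TMM scaling. It had 138.5, 151, 143, 125 and 114 CPM in HFD knockout libraries against 119, 106 and 106.5 CPM in chow knockout libraries, with overlap because HFD knockout 5 lay below chow knockout 2, and a log2 fold change of 0.28 ± 0.080 (SE; edgeR adjusted p = 0.0178). In wild-type it had 128, 133, 119.5, 133 and 124 CPM on HFD against 112, 112, 110.4 and 115 CPM on chow, without overlap, and 0.18 ± 0.073 (SE; edgeR adjusted p = 0.0654), which did not pass. On library totals it passed in both, at 0.55 in the knockout and 0.66 in wild-type. The largest rise in wild-type by size was that of the uncertain Psme2b, at 0.61 ± 0.29 (SE; edgeR adjusted p = 0.117) and 1.09 on library totals.

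Nfe2l1 did not follow the subunits. It had 477, 514, 523, 539 and 503 CPM in HFD knockout libraries and 538, 561, 502, 551 and 463 CPM in HFD wild-type libraries. On chow it had 448, 443 and 449.5 CPM in knockout libraries and 464, 505, 502 and 441 CPM in wild-type libraries. Both HFD groups lay above all chow knockout libraries, and the other pairs of groups overlapped. The group means were 511 ± 23.4 (SD, n = 5) CPM in HFD knockout, 523 ± 40.1 (SD, n = 5) in HFD wild-type, 447 ± 3.37 (SD, n = 3) in chow knockout and 478 ± 31.1 (SD, n = 4) in chow wild-type. HFD wild-type was highest, then HFD knockout, chow wild-type and chow knockout, and no neighbours in this order differed by clearly more than the larger of their SDs. It passed in none of the 6 comparisons with TMM: the log2 fold change was -0.098 ± 0.076 (SE; edgeR adjusted p = 0.598) for genotype on chow, 0.19 ± 0.073 (SE; edgeR adjusted p = 0.0609) for diet in the knockout and 0.13 ± 0.067 (SE; edgeR adjusted p = 0.152) for diet in wild-type. For diet in the knockout it was called by DESeq2 (adjusted p = 0.0204), by edgeR with only the 2 groups compared (adjusted p = 0.0403), and without chow wild-type 4 (edgeR adjusted p = 0.0489) or HFD wild-type 5 (edgeR adjusted p = 0.0438), at 0.19 to 0.20 in each. On library totals the diet values were 0.46 in the knockout (edgeR adjusted p = 0.000731) and 0.60 in wild-type (edgeR adjusted p = 8.96e-06). The transcript does not measure the processed protein, whose release is controlled after translation. The 5 genes among the others whose log2 CPM followed Nfe2l1 most closely over the 17 libraries were, in order, Psmd8, Psme2b, Psmf1, Psmb5 and Psmg4, ranked by Pearson's correlation, which is not given because libraries fall apart by diet.

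Regulators outside the particle were mixed by diet. Psme1 and Psme2, which form the interferon-inducible activator, both fell with TMM scaling. Psme1 had 34.6, 37.3, 30.3, 36.98 and 46.4 CPM in HFD knockout libraries against 53.75, 48.2 and 55.35 CPM in chow knockout libraries, with -0.50 ± 0.11 (SE; edgeR adjusted p = 0.00462), and its wild-type value was -0.43 ± 0.10 (SE; edgeR adjusted p = 0.00507). Psme2 stood at -0.36 ± 0.081 (SE; edgeR adjusted p = 0.00447) in the knockout and -0.36 ± 0.075 (SE; edgeR adjusted p = 0.00175) in wild-type. On library totals Psme1 was at -0.23 and Psme2 at -0.091 in the knockout, and in wild-type both turned, to 0.037 and 0.11, with none passing. The related immunoproteasome genes Psmb8, Psmb9 and Psmb10 passed in none of the 6 comparisons with TMM. On library totals 2 of these 3 genes rose on HFD in wild-type, beside 59.2% of all genes, so this count was near the background. Group means of the 3 immunoproteasome genes were 3.54 to 8.07 CPM. The summed leukocyte markers were 53.15 to 140.1 CPM in HFD knockout, 69.7 to 176 in HFD wild-type, 39.4 to 55.8 in chow knockout and 42.3 to 47.8 in chow wild-type libraries. Of the leukocyte markers, 5 of 8 rose on HFD in the knockout and 6 of 8 in wild-type with TMM, beside 12.8% and 16.9% of all genes. The part of leukocyte transcripts in the subunit values was not tested. The inhibitor Psmf1 lay at 11.7 to 14.7 CPM in every library, and its log2 fold change with TMM was 0.015 for diet in the knockout and 0.0072 in wild-type. On library totals Psmf1 rose, at 0.28 in the knockout (edgeR adjusted p = 0.0286) and 0.48 in wild-type (edgeR adjusted p = 0.000165). The medians of all genes were then 0.30 and 0.49. Of the assembly chaperones, Psmd5 fell in both genotypes with TMM, at -0.32 ± 0.055 (SE; edgeR adjusted p = 0.000699) in the knockout and -0.36 ± 0.051 (SE; edgeR adjusted p = 7.77e-05) in wild-type, where it turned to 0.11 on library totals. Psmd9, Psmd10 and Psmg1 passed as lower in the knockout with TMM and not on library totals, and Psmg2, Psmg3 and Psmg4 passed in neither genotype with TMM.

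Per kilobase of transcript, the scale on which different genes can be compared, chow wild-type levels of the structural subunits tested ran from 12.6 CPM per kb for Psma5 to 77.6 for Psmb7, a 6.16-fold range, with Psmb1 at the median of 32.1. Psma6 was next to highest at 75.6 and Psmd13 next to lowest at 14.3. Subunits that enter the particle in equal numbers differed in transcript level, and lengths of 1 principal transcript a gene from another annotation (GENCODE M21) can misstate single values.

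Genes around the proteasome were read from lists of the pathway. Of 12 accessory and maturation factors 11 were tested, and Adrm1, a ubiquitin receptor of the 19S base, rose in HFD knockout libraries. Adrm1 had 66.7, 74.99, 78.6, 80.1 and 76.9 CPM in HFD knockout libraries against 61.3, 60.5, 49.3, 60.8 and 58.2 CPM in HFD wild-type libraries, without overlap, and a log2 fold change of 0.38 ± 0.070 (SE; edgeR adjusted p = 0.0265). On library totals it was 0.24, with an edgeR adjusted p of 0.0572. On HFD against chow 6 of the 11 fell in the knockout and 8 in wild-type with 0 rising, beside 13.1% and 15.2% of all genes that fell. On library totals 0 fell and 1 rose in the knockout and 1 fell and 4 rose in wild-type, beside 30% and 59.2% of all genes that rose. The one that fell in wild-type under both scalings was Sem1, a small lid subunit not covered by the symbol rule, which stood with TMM at -0.39 ± 0.081 (SE; edgeR adjusted p = 0.00276) in the knockout and -0.70 ± 0.075 (SE; edgeR adjusted p = 8.22e-06) in wild-type. Averaged over diets, Adrm1 and Txnl1, a thioredoxin-like protein bound to the particle, rose, beside 1.32% of all genes, and on library totals Adrm1 passed and Txnl1 did not (edgeR adjusted p = 0.0621).

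Of 16 genes for NFE2L1 processing and its partners, Mafg rose in chow knockout libraries. Mafg encodes a small MAF protein that pairs with NFE2L1 on DNA. It had 27.2, 33.9 and 33.4 CPM in chow knockout libraries against 23.8, 24.7, 24.04 and 22.8 CPM in chow wild-type libraries, without overlap, at 0.40 ± 0.072 (SE; edgeR adjusted p = 0.0148). Its partner paralogue Mafk rose on HFD in both genotypes, at 0.66 ± 0.11 (SE; edgeR adjusted p = 0.000689) in the knockout and 0.86 ± 0.10 (SE; edgeR adjusted p = 2.41e-05) in wild-type, while Ngly1, which removes sugars from NFE2L1 during its release, fell with TMM at -0.31 ± 0.077 (SE; edgeR adjusted p = 0.00727) in the knockout and -0.40 ± 0.071 (SE; edgeR adjusted p = 0.000549) in wild-type. On library totals Ngly1 stood at -0.051 in the knockout and 0.068 in wild-type and passed in neither, and Mafg on chow was at 0.47 with an edgeR adjusted p of 0.0629. In this list 2 rose and 3 fell by diet in the knockout and 3 rose and 1 fell in wild-type with TMM, beside 12.8% and 16.9% of all genes that rose and 13.1% and 15.2% that fell, so these counts were near the background. On library totals 6 and 14 of the 16 rose with 0 falling, beside 30% and 59.2% of all genes. For genotype 0 passed on HFD, and averaged over diets Mafg, Nploc4 and Ufd1 rose, beside 1.32% of all genes. None of these 3 passed on library totals.

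Of 15 ubiquitin and delivery genes, 0 passed for genotype on either diet. Averaged over diets Rad23b and Ubqln1, which carry ubiquitin-tagged proteins to the proteasome, rose with TMM, beside 1.32% of all genes, and did not pass on library totals. By diet 2 rose and 5 fell in each genotype with TMM, beside the same 12.8% and 16.9% of all genes that rose and 13.1% and 15.2% that fell. Library totals gave 6 that rose and 1 that fell in the knockout and 10 and 1 in wild-type, beside 30% and 59.2% of all genes that rose. Of 12 cytosolic chaperones, all were higher in HFD knockout than in HFD wild-type libraries and 3 rose, beside 0.31% of all genes. They were Stip1 at 0.83 ± 0.12 (SE; edgeR adjusted p = 0.00684), Hsp90ab1 at 0.59 ± 0.099 (SE; edgeR adjusted p = 0.0129) and Dnaja1 at 0.79 ± 0.17 (SE; edgeR adjusted p = 0.0481). The chaperone sum was 2765 to 4043 CPM in HFD knockout, 1508 to 2561 in HFD wild-type, 1935 to 2087 in chow knockout and 1814 to 2097 in chow wild-type libraries. In order of library number it was 1508, 1998, 1941, 2484 and 2561 CPM in HFD wild-type 1 to 5. HFD knockout 1 to 5, numbered after these, had 2813, 2765, 3543, 3299 and 4043 CPM. The part of library order in this sum was not tested. The chaperone sum was highest in HFD knockout, the group whose mean subunit sum lay between those of HFD wild-type and chow with TMM. On library totals the mean subunit sum was also highest in HFD knockout, at 1736 CPM. The other means were then 1708 CPM in chow knockout, 1657 in HFD wild-type and 1506 in chow wild-type libraries. By diet, 9 of the 12 rose in the knockout and 2 in wild-type, with 0 falling, beside 12.8% and 16.9% of all genes that rose. The wild-type count was thus near the background. On library totals 11 and 12 rose, beside 30% and 59.2% of all genes. Averaged over diets Bag3, Hsp90ab1 and Stip1 rose, beside 1.32% of all genes. On library totals 2 chaperones passed, and the share of all genes for that count is not given here.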

How the data were processed

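Per the labels' protocols, total RNA from brown adipose tissue was made into Illumina TruSeq libraries. The authors deposited whole-number counts per gene, not normalized, for 17 libraries. The submitters' processing notes name STAR 2.7.8a, RSEM 1.3.0, FastQC, DESeq and the mouse build GRCm39, with no role for each. If RSEM made the counts they are rounded estimates that divide reads between near-copies, whose values are then uncertain. Neither annotation nor strand setting is given in the sources used here.

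In edgeR 4.0.16 (R 4.3.3), filterByExpr kept 17717 genes, TMM factors were set, and the 17 libraries were fitted together by quasi-likelihood with a coefficient for each group. Contrasts were tested two-sided with Benjamini-Hochberg adjustment across the 17717 genes, and a gene was called at an adjusted p of 0.05 or less. The SE of a log2 fold change was derived from its F statistic. DESeq2 1.42.0 and limma 3.58.1 (voom) were alternatives, as were other scalings, no filter, fits of 2 groups, libraries left out, and covariates for library numbers and for muscle and hepatocyte marker sums. Per-library summaries used log2(CPM + 0.5). The pipeline was tested on simulated data. Libraries of a group all differed by more than sampling noise.

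The members, lists and alternatives were chosen with earlier results of these data known, so they are not independent support. Named genes were Nfe2l1, the catalytic subunits, in each comparison the called members or the 6 with the smallest p where more were called (3 where fewer were), the largest rise and drop, and called genes of the other lists, up to 4 a list. Psma1 fell under this rule and is not described singly. Psma2 and other members named beyond the rule were chosen after their values were seen. The symbol Paaf1 was not matched, and some genes of the ubiquitin list are not reported here. Depth was 39585167 to 104874625 counts per library, so replicate spread limits all but the weakest genes.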

Additional observations from a re-analysis of the deposited data

Results flagged for a closer look

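Levels of the 22 members picked by the naming rule, and the summed level of the structural subunits, were screened for single libraries that stand apart. Groups of 4 or 5 libraries were used, which gave 69 group tests. In 3 of them 1 library lay far from the others, where chance gives about 1 in 20 groups. Psma7 had 31.1 CPM in HFD wild-type 4, where the other HFD wild-type libraries had 27.6 to 28.5 CPM. Psmd11 had 75.4 CPM in HFD knockout 1, below the other HFD knockout libraries at 83.9 to 86.9 CPM, and this was the one knockout library numbered beside the HFD wild-type libraries. Psmd11 also had 64.7 CPM in HFD wild-type 3, below the other HFD wild-type libraries at 69.4 to 71.3 CPM. The cause was not tested.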

How the results depend on the processing

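Counts of members called (of 47) moved with the processing as follows. Genotype on HFD gave 3 above, 0 on library totals, 1 without the low-count filter, 18 with DESeq2, 6 with limma-voom, 1 with only the 2 groups compared, 0 with the run of library numbers as a covariate (where HFD knockout 1 alone carries the HFD difference), 0 without muscle-rich or without liver-rich HFD libraries, 0 with both marker sums as covariates, and 0 to 5 with single libraries left out. Genotype on chow gave 0 in the analysis above, 3 with DESeq2 and 0 to 1 with single libraries left out. Diet in the knockout gave 26 above, 10 of mixed direction on library totals (member median 0.048; Psmb6 0.067), 15 with the run as a covariate, and 17 (without chow knockout 3) to 29 with single libraries left out. Diet in wild-type gave 31 above, all of which fell, and 27 on library totals, where 25 rose and 2 fell. Of all genes 59.2% rose and 2.4% fell under that scaling. The 25 were in part other genes than the 31, such as Psmd8 and Nfe2l1. The member median was then 0.24, with Psmb5 at 0.39, Psmb6 at 0.11 and Psmb7 at 0.0064. Wild-type diet calls were 19 with marker sums as covariates and 28 to 33 with single libraries left out. The averaged genotype effect gave 12 above, 1 on library totals, 6 without the filter, 0 with the run, 0 with marker sums, 0 without muscle-rich and 3 without liver-rich HFD libraries, 1 without chow wild-type 1 and 2 (an alternative chosen after seeing the data), and 3 to 12 with single libraries left out. The interaction gave 0 under every alternative run. Of 1606 values of named members under alternatives, 1462 counted as the same. These kept their direction and side of the threshold, or changed sign by no more than the SE without a call in either fit. With the direction kept, 113 lost the call and 16 gained it. Another 11 changed sign by more than the SE without a call in either fit. The last 4 changed sign with a call in either fit, and were the Psmb5, Psmb6 and Psmb7 values above. The causes of these changes were not tested.

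With the replicate block, which leaves out libraries whose number has no partner, genotype on HFD gave 1 call (Psmd7), diet in the knockout 14 and the averaged effect 1, and the other counts stayed within 1.5 times. The deviations of same-numbered libraries had correlations of -0.74 to 0.36, of both signs. These values cannot show whether such libraries share more than a number.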
